A study of Mus musculus with 6 samples.

Results

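miR-26 and miR-101 are small families of mature miRNAs that repress Ezh2, the histone methyltransferase of Polycomb repressive complex 2. Their assays were taken by name from an RT-PCR panel: every well whose assay name, without species prefix, assay number or arm, read miR-26a, miR-26b, miR-101a or miR-101b (mmu-miR-26a, mmu-miR-26b, mmu-miR-101a and mmu-miR-101b in the table), with minor strands left out. This gave 4 of 768 wells, 1 for each member. miR-26a, miR-26b and miR-101a lay on the first of 2 cards and miR-101b on the second. All 4 were detected in every sample used.

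The panel was run on right lungs of mice taken 7 days after birth. Room air mice (labelled control, 3 samples) and mice kept in 95% oxygen for 7 days from before 12 h of age (hyperoxia, 3 samples) shared every other condition given. The dams were exchanged between room air and hyperoxia every 24 h, and the pulmonary artery was flushed with saline before the lung was taken. The labels give no strain or sex and do not say that the samples are separate animals or litters, so p-values measure the spread among these samples alone, part of which may be technical.

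A miRNA pairs with its targets mainly through its seed, bases 2 to 8 from the 5′ end. Ezh2 places the repressive mark on histone H3 lysine 27, and both families are known to pair with its mRNA and lower its protein. The miR-26 genes sit in genes of small phosphatases of the Ctdsp family that act on the retinoblastoma protein, and miR-26a has been studied as a restraint on proliferation and on lung fibrosis. miR-101 is best known from cancers in which its loss goes with more EZH2. Ezh2 itself was not measured here.

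The mature sequences are shown because the families are defined by their seeds, and because the assays tell members apart by 1 or 2 bases. They come from RefSeq (GRCm38.p6), where all 4 members matched, with the seed in capitals:
miR-26a: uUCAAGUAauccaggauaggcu
miR-26b: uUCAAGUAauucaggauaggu
miR-101a: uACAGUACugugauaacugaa
miR-101b: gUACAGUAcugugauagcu

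miR-26a and miR-26b shared the seed, and no other of the 1679 mature mouse miRNA names in that table had it. Counted from the 5′ end of miR-26a, they differed by C11U and C21U over 21 compared bases. miR-101a and miR-101b were alike at 17 of 18 compared bases and differed by A16G, counted from the 5′ end of miR-101a. The table starts miR-101b 1 base earlier, so by strict position their seeds read differently, although the hairpin of miR-101a has the same base, G, just before its mature strand. The deposited names follow miRBase version 14, whose sequences were not used here.

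Mature miR-26a is made from 2 genes, Mir26a-1 (mature strand at chr9:119031811-119031832, plus strand) and Mir26a-2 (mature strand at chr10:126995543-126995564, plus strand), and the assay cannot say from which. Their hairpins, chr9:119031796-119031885 and chr10:126995530-126995613, lie within the protein-coding genes Ctdspl and Ctdsp2. The mature strand of miR-26b (chr1:74394324-74394344, plus strand) lies within Ctdsp1, and that of miR-101b (chr19:29135338-29135356, plus strand) within Rcl1, a gene of ribosomal RNA processing. That of miR-101a (chr4:101346957-101346977, minus strand) lies within the long noncoding gene E130102H24Rik. Whether these positions are intronic was not examined.

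Levels are given as the threshold cycle (Ct), at which the PCR signal crosses a threshold. More RNA gives a lower Ct, by 1 cycle for each 2-fold at full PCR efficiency. Per sample, 307 to 319 miRNAs were detected (Ct under 35) on the first card and 268 to 293 on the second. Because the detected miRNAs of the first card came up 0.76 cycles later in hyperoxia on average (exact permutation p = 0.1, two-sided, the smallest that 3 against 3 allows), each value is also given as a log2 relative abundance, the card's mean Ct over detected miRNAs minus the Ct of the assay. The small RNA controls snoRNA135, snoRNA202, U87 and Y1 of that card shifted by -0.078, 0.038, -0.13 and 0.41 cycles (hyperoxia minus room air). Why the miRNAs and these controls differ was not tested. On the second card, room air replicate 1 and hyperoxia replicate 2 had the identical Ct in 308 of 309 amplified wells, against 0 of 312 on the first card. Those values were left out, so miR-101b rests on 2 samples per group.

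miR-26a was the most abundant member by Ct and the one whose values lay farthest apart. The Ct of mmu-miR-26a was 14.98, 15.20 and 14.68 in room air replicates 1 to 3, and 15.82, 17.95 and 18.16 in hyperoxia replicates 1 to 3. Hyperoxia replicate 1 was close to room air, while replicates 2 and 3 came up more than 2 cycles later. In relative abundance the samples stood at 7.05, 7.29 and 7.92 in room air, against 7.65, 4.67 and 5.15 under hyperoxia, so that hyperoxia replicate 1 lay inside the room air range and the groups overlapped.

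The log2 fold change of miR-26a in hyperoxia over room air was -1.60 ± 0.84 (SE, n = 3 per group), a 3.02-fold lower mean with a 95% interval from -3.68 to 0.48, and it did not pass (limma adjusted p = 0.667 over all assays). Over the panel 0 of 551 miRNA assays passed at an adjusted p of 0.05 (0%), and 50 (9.07%) had an unadjusted p under 0.05, none of them a member. The value rested on single samples: it was -2.52 without hyperoxia replicate 1 (adjusted p = 0.0948) and -1.01 without hyperoxia replicate 2 (adjusted p = 0.784). In whole lung, fewer cells that hold a miRNA and less of it per cell cannot be told apart.

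miR-26b, with the same seed, ranked the 6 samples in the same order by relative abundance, over a smaller range. The Ct of mmu-miR-26b was 17.82, 17.92 and 17.34 in room air, against 18.42, 18.83 and 19.46 under hyperoxia. All 3 hyperoxia samples came up later than all 3 room air samples, as they did for miR-26a, but so did 46.5% of the 282 first-card miRNAs detected in all samples. In relative abundance, room air stood at 4.21, 4.56 and 5.26 and hyperoxia at 5.05, 3.78 and 3.85. The groups overlapped, since hyperoxia replicate 1 again stood inside the room air range. The log2 fold change was -0.45 ± 0.48 (SE, n = 3 per group; 95% interval from -1.64 to 0.74; limma adjusted p = 0.787). With 1 sample left out it ran from -0.87 without hyperoxia replicate 1 to -0.17 without room air replicate 3.

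In relative abundance, miR-101a was the steadiest of the first-card members within groups. By Ct it was not: its SD was 0.35 in room air and 0.88 in hyperoxia, against 0.31 and 0.52 for miR-26b. The Ct of mmu-miR-101a was 20.18, 20.45 and 20.87 in room air, against 21.85, 20.17 and 21.43 under hyperoxia. Hyperoxia replicate 2 had the lowest Ct of the 6 samples, although the same sample was late for miR-26a. In relative abundance room air stood at 1.85, 2.03 and 1.73 and hyperoxia at 1.62, 2.44 and 1.88, so the room air samples lay inside the hyperoxia range. In relative abundance the groups thus overlapped for all 3 first-card members, while 16.3% of the 282 first-card miRNAs were lower and 5.67% higher in hyperoxia without overlap. The log2 fold change was 0.11 ± 0.30 (SE, n = 3 per group; 95% interval from -0.64 to 0.86; limma adjusted p = 0.935), and it was -0.45 with the small RNA controls as reference and -0.11 without hyperoxia replicate 2. The interval leaves room for a change of somewhat under 2-fold either way.

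On the second card mmu-miR-101b had a Ct of 21.50 and 21.53 in room air replicates 2 and 3, against 21.41 and 21.91 in hyperoxia replicates 1 and 3. The value shared by the other samples was 21.45. Relative abundances were 3.597 and 3.45 in room air, against 3.798 and 3.34 under hyperoxia, so that both room air samples lay between the hyperoxia samples. The log2 fold change was 0.04 ± 0.36 (SE, n = 2 per group; 95% interval from -1.001 to 1.09; limma adjusted p = 0.969), and its sign turned under 11 of 27 alternatives.

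**Figure D1:**
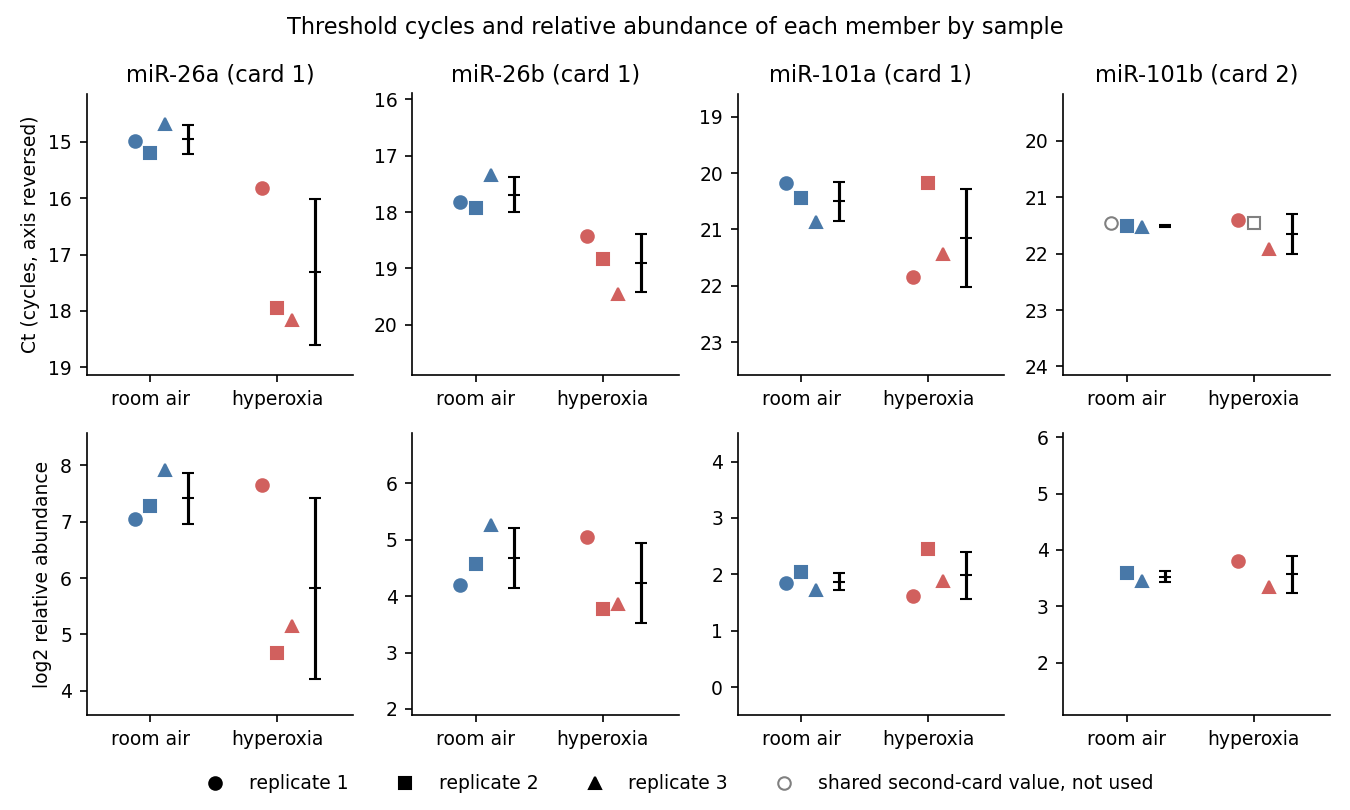
Ct (top row, in cycles, axis reversed so that more RNA is higher) and log2 relative abundance (bottom row) of the 4 members in room air (blue) and hyperoxia (red). Points are samples, bars the mean ± SD, and open grey points the shared second-card Ct of 21.45 that was not used; for miR-26a hyperoxia replicate 1 (7.65) lies among the room air samples while replicates 2 and 3 (4.67 and 5.15) lie below.

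The name of the miR-101b well is less sure than those of the first card. On the second card 104 miRNA names carry an assay number, and all 104 match the number listed 3 wells later, 0 the number of their own well. Names were followed here. If the numbers were followed, miR-101b would be the well listed as miR-872#, with a Ct of 21.20 and 21.38 in room air, against 22.03 and 22.46 under hyperoxia. That reading gives -0.79 ± 0.36 (SE, n = 2 per group; limma adjusted p = 0.668), with both hyperoxia samples below both room air samples in relative abundance; with names as listed, 29.3% of 249 second-card assays were without overlap.

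Ct values of different assays depend on primer efficiency, so the order of the members is a description. Among the 282 first-card miRNAs detected in all samples, 13, 11 and 6 had an earlier Ct than miR-26a in room air replicates 1 to 3. In hyperoxia these numbers were 7, 43 and 33. For miR-26b they were 50, 42 and 35 in room air against 40, 60 and 58 under hyperoxia, and for miR-101a 109, 111 and 117 against 116, 98 and 112. miR-26a thus stood among the earliest assays in 4 samples and lower in the list in hyperoxia replicates 2 and 3, while miR-101a kept about the same place. On the second card 42 and 42 of 249 miRNAs came up before miR-101b in room air, and 40 and 43 in hyperoxia.

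Against all assays, the miR-26a fold change was the 26th lowest of 551, and its unadjusted p was the 88th smallest. The within-group SD of its relative abundance, 1.18, was larger than that of 87.2% of the first-card miRNAs, whose median SD was 0.42. For miR-26b the SD was 0.63 and for miR-101a 0.32. The median log2 fold change of all assays tested was -0.12, close to the values of miR-101a and miR-101b.

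**Figure D2:**
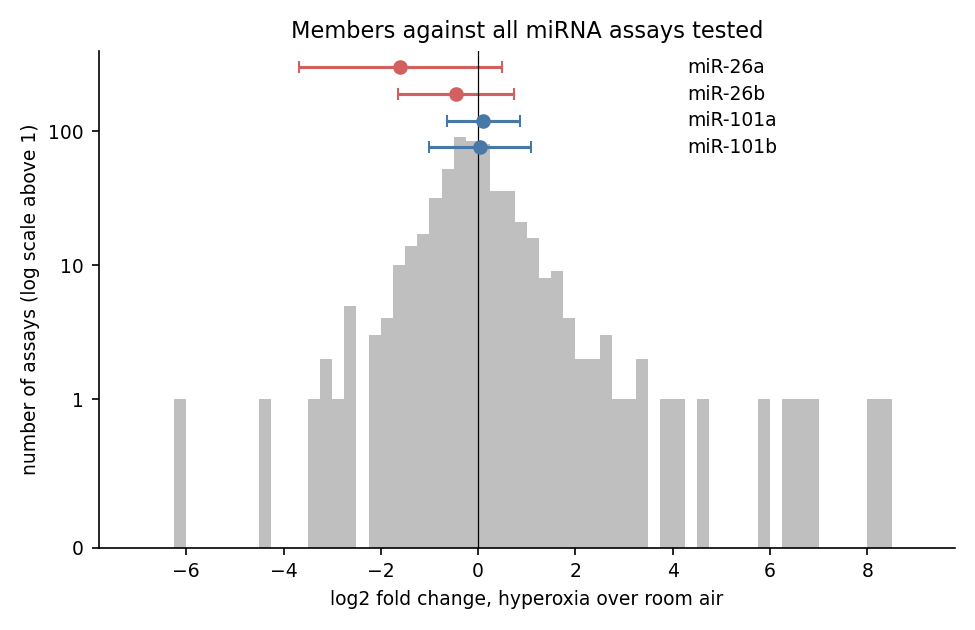
Log2 fold change in hyperoxia over room air of the 551 miRNA assays tested (grey histogram, counts on a log axis above 1), with the 4 members above it as points with 95% intervals placed at arbitrary heights. The histogram leaves out miR-302a (9.10) and miR-17# (10.51), which lie beyond its last bin. miR-26a, at -1.60, lies toward the lower side of the histogram, and all 4 intervals include 0.

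Differences in Ct between assays of one card cancel any reference common to the card, so the members were also set against each other within each sample. The Ct of miR-26a minus that of miR-26b was -2.84, -2.72 and -2.66 cycles in room air, and -2.604, -0.89 and -1.29 cycles in hyperoxia. The mean of this difference was -2.74 ± 0.09 (SD, n = 3) for room air, compared with -1.59 ± 0.90 (SD, n = 3) for hyperoxia. All 3 hyperoxia samples were above all 3 room air samples, with hyperoxia replicate 1 (-2.604) just beyond room air replicate 3 (-2.66), and by 1.15 cycles, or 2.21-fold, on average. The exact permutation p was 0.1 (two-sided), the smallest that 3 against 3 allows, and 0.4 after Benjamini-Hochberg adjustment over the 4 differences computed. Quantile normalization, which scales each assay by its rank, gave a difference between the log2 fold changes of -0.93 with an exact permutation p of 0.3, so the groups then overlapped. With 1 sample left out this difference of log2 fold changes ran from -1.65, without hyperoxia replicate 1, to -0.79.

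The miR-26 pair was set against miR-101a in the same way. The mean Ct of miR-26a and miR-26b minus that of miR-101a was -3.78, -3.89 and -4.86 cycles in room air, and -4.73, -1.78 and -2.62 cycles in hyperoxia. These groups overlapped, with a mean shift of 1.13 cycles and an exact permutation p of 0.3 (0.4 adjusted). On the log2 scale, where a later Ct is a lower value, this shift was -1.98 without hyperoxia replicate 1 and -0.50 without hyperoxia replicate 2 (exact permutation p of 0.1 and 0.7). The 2 remaining differences, of miR-26a and of miR-26b from miR-101a, overlapped as well (exact permutation p of 0.3 and 0.4). They too moved with single samples: the first was -2.80 without hyperoxia replicate 1 and -0.897 without replicate 2, the second -1.15 and -0.10, and -0.197 without room air replicate 3. With the plate row mean as reference, a choice made after seeing the data, the difference of miR-26a from miR-101a was -2.08 (exact permutation p = 0.1, groups not overlapping). miR-101a and miR-101b, on different cards, were not set against each other.

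**Figure D3:**
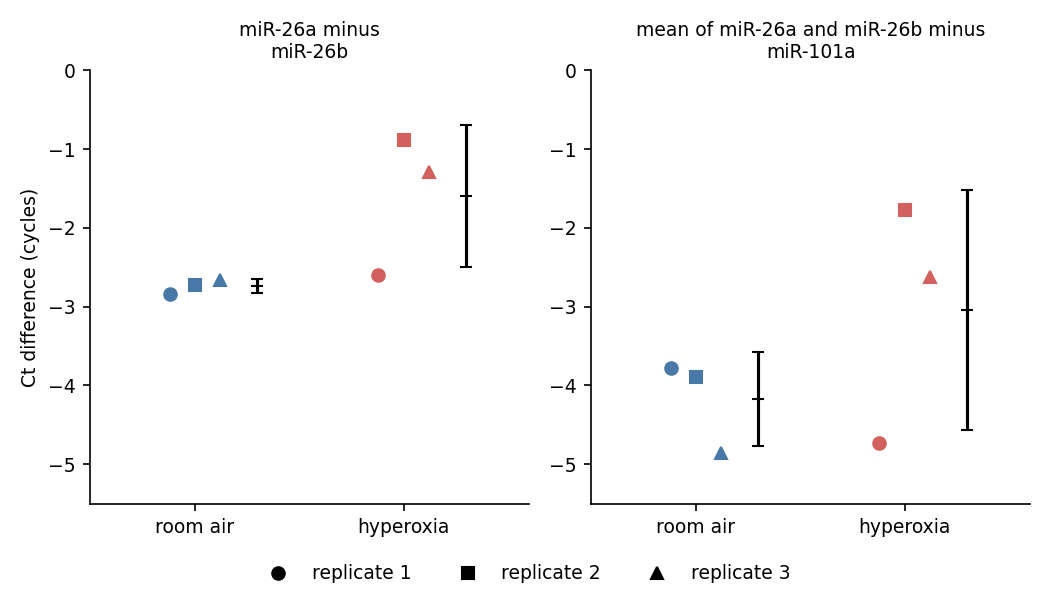
Ct of miR-26a minus Ct of miR-26b (left), and of the mean of both minus miR-101a (right), in cycles, for each sample of room air (blue) and hyperoxia (red) with the mean ± SD. On the left the room air samples sit between -2.84 and -2.66, hyperoxia replicate 1 at -2.604 beside them, and replicates 2 and 3 at -0.89 and -1.29.

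Over the 6 samples, the relative abundances of miR-26a and miR-26b correlated at Pearson r = 0.91, whereas miR-101a ran against both (r = -0.74 and -0.70). These are descriptions of 6 points that share a card and a reference. The 5 first-card miRNAs most like the mean of the first-card members, of 279 candidates, were miR-379 (r = 0.96), miR-188-5p (r = 0.95), let-7g (r = 0.95), miR-99b (r = 0.94) and miR-27b (r = 0.94). Their own log2 fold changes lay between -0.74 for miR-188-5p and -0.31 for miR-379, with limma adjusted p from 0.754 to 0.829. miR-26a, with a within-group SD of 1.18 against 0.63 for miR-26b and 0.32 for miR-101a, weighs most in that mean. The correlation of these 5 miRNAs with each member alone was not computed.

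Of the wells beside miR-26a, that of miR-25 stood apart in hyperoxia replicate 2. miR-25, in the well just before miR-26a on the plate, had a Ct of 15.24 in that sample and of 20.69 to 22.27 in the other 5. In the same sample miR-26a read 17.95 and miR-26b, in the next well, 18.83. Each lay within the range of its other 5 samples (14.68 to 18.16 and 17.34 to 19.46), but 2.75 and 0.91 cycles later than their median. The top of that miR-26a range is hyperoxia replicate 3 alone, and the next highest Ct is 15.82, in hyperoxia replicate 1. The well after miR-26b, that of miR-27a, read 19.64 in hyperoxia replicate 2, within its range of 19.19 to 20.36 in the other samples. In hyperoxia replicate 3 miR-25 read 22.27, near the other samples, while miR-26a was late. The part of these neighbouring readings in the miR-26a value was not tested beyond leaving out hyperoxia replicate 2.

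The U6 wells, nuclear RNA read as a control, also differed by plate row. U6 came up 0.43 cycles later in hyperoxia in row A and 1.06 cycles later in row B, the row of miR-26a and miR-26b. The exact permutation p was 0.2 for row A and 0.1 for row B. The U6 means of both rows were identical in room air replicate 1 (9.364) and in room air replicate 3 (10.258). The rows thus differed in the other samples alone, and why those values repeat was not tested. The detected miRNAs of row B came up 0.52 cycles later on average, and those of row C, which holds miR-101a, 0.90 cycles later. With the mean of the same plate row as reference, a choice made after seeing the data, miR-26a was at -1.83 ± 0.71, miR-26b at -0.69 ± 0.36 and miR-101a at 0.25 ± 0.27 (SE, n = 3 per group; limma adjusted p from 0.566 to 0.813).

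Of 28 alternatives, 13 concern the filter, the second card or the error model and leave the fold changes of the miR-26 members exactly as they are. Under the 15 that can move them the direction was the same, from -2.52 to -1.01 for miR-26a and from -1.21 to -0.17 for miR-26b. With the small RNA controls as reference miR-26a was at -2.16 and miR-26b at -1.01 (limma adjusted p = 0.417 for both). Without normalization they were at -2.36 and -1.21 (limma adjusted p = 0.201 for both). None of the members passed under any of the 28. The lowest adjusted p was 0.0948 for miR-26a, 0.201 for miR-26b, 0.507 for miR-101a and 0.598 for miR-101b. Many of these alternatives share the same samples and reference and are not independent.

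**Figure D4:**
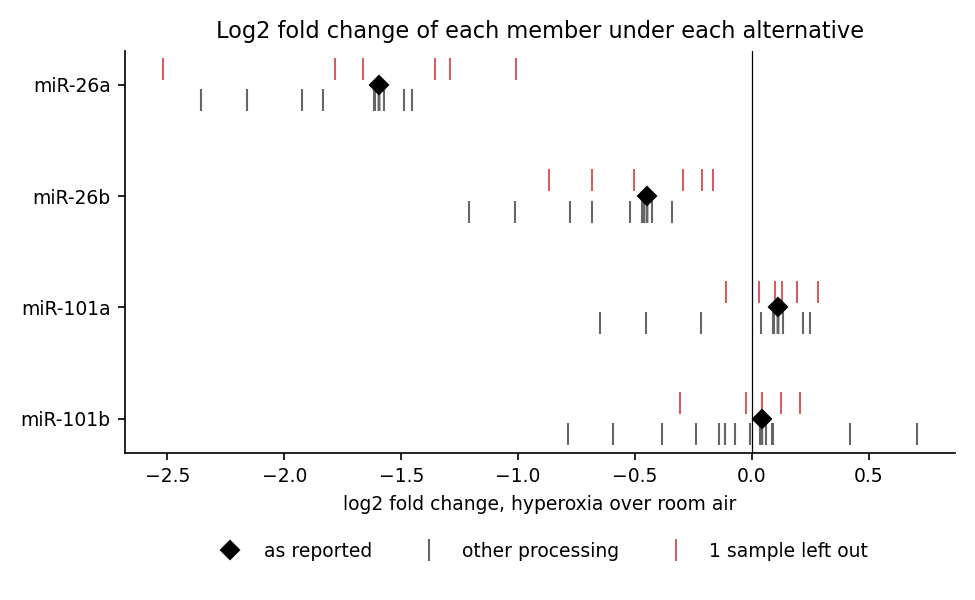
Log2 fold change of each member as reported (black diamond), under other processing (grey ticks) and with 1 sample left out (red ticks). All ticks of miR-26a and miR-26b lie below 0, and those of miR-101a and miR-101b fall on both sides.

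In the authors' deposited table the fold of hyperoxia over room air, relative to U6, was 0.264 for miR-26a, 0.584 for miR-26b, 0.861 for miR-101a and 1.27 for miR-101b. Those folds carry no test, and the one for miR-101b includes the shared second-card values. With the first card's row A U6 wells as reference, the fold changes computed here were -1.92 ± 0.73 for miR-26a and -0.78 ± 0.49 for miR-26b (log2, SE, n = 3 per group; limma adjusted p of 0.481 and 0.575).

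Minor strands were measured for 2 of the hairpins, both among second-card assays (n = 2 per group). hsa-miR-26b#, the other strand of the miR-26b hairpin, had a Ct of 24.36 and 24.13 in room air, against 24.61 and 25.40 under hyperoxia. Its relative abundance was 0.74 and 0.85 in room air, against 0.59 and -0.15 under hyperoxia, without overlap (as for 29.3% of second-card assays). The log2 fold change was -0.57 ± 0.42 (SE; limma adjusted p = 0.723), and it was -1.06 without hyperoxia replicate 1 and -0.27 without hyperoxia replicate 3. miR-101a# came up later, with a Ct of 29.93 and 29.49 in room air, against 27.90 and 31.32 under hyperoxia. Its hyperoxia samples lay on either side of room air, at 0.29 ± 1.30 (limma adjusted p = 0.948). The uncertainty of names applies to both: with numbers followed, hsa-miR-26b# was at 0.52 and miR-101a# at -0.42.

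Other miRNAs reported to repress Ezh2 were read from a list of 11 names, all matched, to 13 assays of which 12 were tested. Of these 10 were above 0 and 2 below, whereas 232 of all 551 assays were above 0. The median of the list was 0.50 beside -0.12 for all assays, and 0 passed. miR-214 and miR-217 each have 2 assays in the list, and let-7a, let-7b, let-7c and miR-98 belong to 1 family. The counts are therefore not of independent assays. The median was -0.06 with the small RNA controls as reference (5 above 0 and 7 below), -0.26 without normalization and -0.10 without hyperoxia replicate 1. 1 assay had an unadjusted p under 0.05 on the lower side, where the background was 5.44%. This was hsa-miR-144, an erythroid miRNA whose mature form in RefSeq differs from miR-101a within the seed by C8U:
miR-144: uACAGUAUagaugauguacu

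Its Ct was 25.04 and 25.01 in room air, against 26.40 and 26.59 under hyperoxia, both hyperoxia samples being later. The log2 fold change was -1.29 ± 0.32 (SE, n = 2 per group; limma adjusted p = 0.446), -0.81 with the shared values assigned to hyperoxia and 0.14 with numbers followed in place of names. miR-25 (1.92 ± 1.73) had the largest value of the list and was at -0.098 without hyperoxia replicate 2, the sample with the Ct of 15.24. The second-card assay of miR-217, a miRNA typical of pancreas, was at 1.35 ± 1.08 with Ct values of 31.34 to 33.99 in the samples used, at -0.03 without room air replicate 3, -0.58 with numbers followed and 0.53 with the shared values kept in hyperoxia. miR-138 was at -0.67 ± 0.29 and let-7a at 0.61 ± 0.65; the limma adjusted p of these 4 lay between 0.610 and 0.787.

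The reverse list held miRNAs whose own genes Ezh2 is reported to repress: miR-181a, miR-181b, miR-200b, miR-200c, miR-203 and miR-31. Of the 6 names 5 matched, to 7 assays, all tested. 4 lay above 0 and 3 below (over all assays 232 of 551 above 0), within -0.29 and 0.14, with a median of 0.06 and 0 passing. miR-203, an epithelial miRNA, was at -0.29 ± 0.21, miR-181a, abundant in lymphocytes, at 0.14 ± 0.41, and the first-card assay of miR-200b, an epithelial miRNA that restrains the mesenchymal state, at -0.12 ± 0.41 (limma adjusted p from 0.689 to 0.935). All 7 were below 0 with the small RNA controls as reference or without normalization, and the sign of the median also turned under other alternatives.

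**Figure D5:**
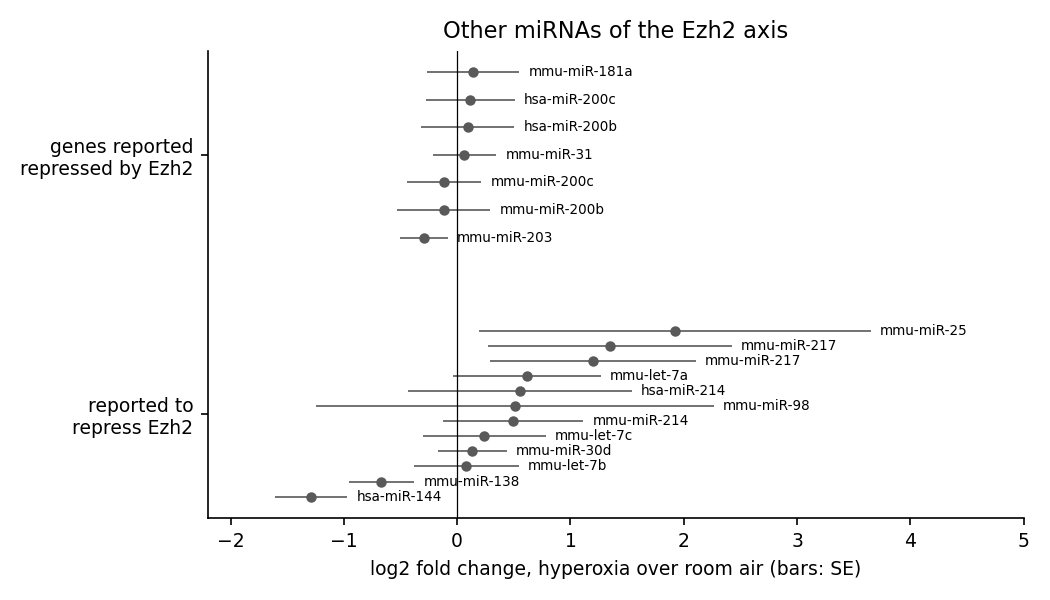
Log2 fold change in hyperoxia over room air, with SE bars, of each assay tested on the list of miRNAs reported to repress Ezh2 (bottom) and on the list of miRNAs whose genes Ezh2 is reported to repress (top). The lower group runs from -1.29 to 1.92, the upper one from -0.29 to 0.14.

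Markers of lung cell types were present in all samples and did not pass in any list. The endothelial miR-126-3p had a Ct of 11.30 to 13.57 and stood at -0.61 ± 0.37 (log2 fold change; limma adjusted p = 0.689). The median was -0.03 for 7 epithelial assays, -0.03 for 6 smooth muscle and mesenchymal assays, 0.60 for 5 immune assays and 0.24 for 3 erythroid assays. Single markers lay far from these medians, and 1 assay each of the mesenchymal, immune, erythroid and striated muscle lists had an unadjusted p under 0.05, all on the lower side (background 5.44%). These were miR-145 of smooth muscle (-0.68 ± 0.23), miR-150 of lymphocytes (-1.09 ± 0.27), hsa-miR-144 (above) and miR-208b of striated muscle (-1.06 ± 0.25), with limma adjusted p from 0.333 to 0.477. In their lists 3 of 6 mesenchymal, 3 of 5 immune, 2 of 3 erythroid and 1 of 6 striated muscle assays lay above 0. Over all assays 232 of 551 did. miR-208b came up late (Ct 30.6 to 32.9), and hsa-miR-206 of the same list, on the second card, was at 1.31 ± 0.61. Of the other immune assays, both for miR-223, a miRNA of myeloid cells, were above 0, at 0.94 ± 0.55 and 0.89 ± 0.68 (limma adjusted p of 0.689 and 0.738). The first-card epithelial mean, in log2 relative abundance, ran from 4.51 to 4.65 in room air and from 4.01 to 4.80 in hyperoxia, the mesenchymal mean from 5.47 to 5.93 and from 5.32 to 6.00, and the immune mean from 2.59 to 2.73 and from 2.45 to 3.29. Of markers from other tissues, 6 striated muscle assays had a median of -0.39, the liver miR-122 was at -0.69 and the neural miR-9 at 0.11; the neural miR-124, also on the list of Ezh2 repressors, amplified in 1 of 3 room air samples (Ct 30.61) and in all 3 hyperoxia samples (29.87, 31.39 and 28.50), and was not tested because the filter asked for 2 samples in each group. Their part in the values of the members was not tested.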

How the data were processed

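The deposited table holds non-normalized Ct values by well, with 40 for no amplification. Megaplex primers (sets A and B) were used for reverse transcription and 12 cycles of pre-amplification, per the labels' protocols; the sources used here do not name the instrument or its Ct threshold. A column with the fold, a ratio between groups, was added by the authors, per the file headers.

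Ct values of 35 and above were set to missing. Each Ct was subtracted from the mean Ct of the miRNAs detected in all samples used of its card (282 assays on the first, 249 on the second), controls left out. Assays detected in at least 2 samples of each group were compared in R 4.3.3 by limma 3.58.1 (lmFit, eBayes, two-sided; 1.62 prior degrees of freedom), with Benjamini-Hochberg adjustment over all 551 and a threshold of 0.05. Within-sample differences between members, and the Ct of the reference measures (mean of detected miRNAs, U6), were compared by exact permutation tests over samples. The script was tested on simulated data. In the alternative that keeps every Ct, the reference stayed as reported; with other ceilings it was recomputed.

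Members, lists and tests were chosen with earlier results of these data known. Named besides the members were their minor strands, members of both Ezh2 lists with an unadjusted p under 0.05 or among the 3 largest of a list, the 5 most similar miRNAs, and cell type markers; miR-138, let-7a and miR-27a, and which cell type markers to single out, were chosen after their values were seen.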

Additional observations from a re-analysis of the deposited data

How the results depend on the processing

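The number of samples limits the precision, and under none of the alternatives did a member pass. Of all assays, 0 passed as reported, 1 with a Ct ceiling of 32 or of 28, 1 with the first card alone, 1 with a trend in the prior, 2 without the filter and 8 with every Ct kept; with 1 sample left out the number ran from 0 to 4. Those with an unadjusted p under 0.05 were 50 as reported, 124 without normalization, 33 with a ceiling of 28, 27 with the replicate block and 23 to 55 with 1 sample left out. With 1 sample left out a second-card group can hold 1 sample, assumed to vary like the other.

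miR-26a and miR-26b kept their direction under the 15 alternatives that can move them. miR-101a turned to -0.22 with U6 of row A as reference, -0.45 with the small RNA controls, -0.65 without normalization, and ran from -0.11 to 0.28 with 1 sample left out. miR-101b turned to -0.24 with U6 of its card, -0.38 with the controls, -0.11 with quantile normalization, -0.14 without normalization, -0.075 with a ceiling of 28, -0.0092 with the shared values kept in room air, -0.60 with the plate row mean and -0.79 by assay number (the latter 2 chosen after seeing the data), and ran from -0.31 to 0.20 with 1 sample left out. hsa-miR-26b# turned to 0.089 when the first-card mean served for both cards and 0.52 by assay number. miR-101a# turned to -0.14 with the controls, -0.25 with the shared values kept in hyperoxia, -0.35 with the plate row mean and -0.42 by assay number, and ran from -1.52 to 1.90 with 1 sample left out. The median of the miRNAs whose genes Ezh2 is reported to repress moved to -0.70 without normalization. Changing a card's common reference moves every assay detected in all samples of that card by the same amount, so values near 0 can change sign. The cause of the other turns was not tested. The median of all assays was -0.62 without normalization or with the controls, and 0.18 when the first-card mean served for both cards.

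The labels give replicate numbers but no pairing, and the samples were treated as unpaired. The deviations of same-numbered samples correlated at -0.34, -0.23 and -0.18 across first-card assays, those of differently numbered samples at -0.25 to 0.36. Because deviations were taken from the mean of 3 samples per group, these correlations cannot decide whether samples share a litter or a batch. With the replicate block miR-26a was at -1.60 (limma adjusted p = 0.589), miR-101b at -0.11 and miR-101a# at -1.56, the second-card values resting on replicate 3 alone and having no test. No member has more than 1 well, so averaging wells was not run.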
